A study of Mus musculus with 12 samples.

Results

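The levels of 10 genes of the Wnt pathway were followed through RNA-seq of the mouse embryonic cortex. They were chosen by name: the secreted antagonists Sfrp1, Sfrp2, Dkk3 and Wif1, and the target genes Axin2, Lef1, Nkd1, Notum, Apcdd1 and Sp5. Each symbol matched 1 Ensembl identifier, so the 10 genes stand for 10 of 48709 rows of the count tables, and all 10 passed the filter on low counts. The 12 libraries came from the cortex at E15.5, a stage of embryonic neurogenesis, in the strain C57BL/6J per the labels. There were 4 libraries of a conditional knockout (cKO) of BAF155, 4 labelled as a conditional knockout of Pax6 and 4 of Control, numbered 1 to 4 in each group. BAF155 is encoded by Smarcc1 and belongs to the core of the BAF complex, which remodels chromatin, and Pax6 is a transcription factor made by the radial glia that give rise to cortical neurons. The sources used here do not give the Cre driver, the deleted exons, any pooling or the genotype of the controls. It is not stated that each library is a different embryo, and the p-values therefore cover the spread from library to library, which may be technical.

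Wnt proteins are lipid-modified secreted signals that bind Frizzled and Lrp5/6 receptors and keep β-catenin from being destroyed. β-catenin then joins TCF/LEF proteins on DNA and switches on target genes, several of which encode inhibitors that feed back on the pathway. In the embryonic cortex the cortical hem, at its medial edge, is a rich source of Wnts, and secreted antagonists are made by radial glia and by the antihem at the lateral edge.

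The libraries held 15.16 to 32.05 M counted reads each. Smarcc1 was at 115 to 139 CPM in the BAF155 cKO, 177 to 194 CPM in the libraries labelled Pax6 cKO and 220 to 361 CPM in Control, and was called lower in the BAF155 cKO (log2 fold change −1.25, adjusted p = 1.64e-05, edgeR) and in the libraries labelled Pax6 cKO (−0.71, adjusted p = 0.00128, edgeR). CPM are counts per M reads of library size scaled by TMM, a normalisation of edgeR. Pax6 went against its label: it was higher both in the BAF155 cKO (273 to 369 CPM) and in the libraries labelled Pax6 cKO (380 to 399 CPM) than in Control (82.0 to 125 CPM), although whole-gene counts can include reads from exons outside a deletion. The libraries also differed in sex. By Xist and Y-linked counts, the 4 BAF155 cKO libraries and Control replicates 3 and 4 were female, and the 4 libraries labelled Pax6 cKO and Control replicates 1 and 2 were male. The 10 genes and the pathway lists were for that reason also set against the 2 same-sex controls. The sequencing lane, read from the names of the deposited files, was lane 8 for all controls, lane 1 for all libraries labelled Pax6 cKO and BAF155 cKO replicates 1 and 2, and lane 3 for BAF155 cKO replicates 3 and 4. Lane and group cannot be told apart in the comparisons with Control. The cortical genes Emx1, Emx2, Lhx2, Neurod6 and Tbr1 summed to 957 to 1511 CPM in the BAF155 cKO, 1050.01 to 1176 CPM in the libraries labelled Pax6 cKO and 1555 to 2162 CPM in Control. Neurod6 made up most of the sum in each library. Of these 5, 3 were called lower in the BAF155 cKO and 4 in the libraries labelled Pax6 cKO, with 0 higher. Of all genes tested, 7.56% and 18.9% were called lower there. Emx2 was called in neither (log2 fold change −0.15 and −0.05). With same-sex controls 5 were lower in the BAF155 cKO and 3 in the libraries labelled Pax6 cKO, beside 14.5% and 4.9% of all genes.

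The 10 genes covered a wide range of levels. Per kilobase of merged exon length, Sfrp1 was the most abundant in every group, at 40.8 ± 4.67 CPM per kb in the BAF155 cKO, 33.8 ± 2.43 CPM per kb in the libraries labelled Pax6 cKO and 62.6 ± 5.39 CPM per kb in Control (SD, n = 4 each). In Control it was followed by Dkk3 (12.8 CPM per kb), Sfrp2 (9.61 CPM per kb), Apcdd1 (8.29 CPM per kb), Axin2 (6.40 CPM per kb) and Nkd1 (5.88 CPM per kb). Lef1 (0.974 CPM per kb), Wif1 (0.493 CPM per kb), Sp5 (0.479 CPM per kb) and Notum (0.138 CPM per kb) were lower by another step. Neighbours in this order did not overlap in range at 4 places: Sfrp1 and Dkk3, Dkk3 and Sfrp2, Nkd1 and Lef1, and Sp5 and Notum. The other neighbours overlapped. In the BAF155 cKO Dkk3 stood below Axin2, Sfrp2, Apcdd1 and Nkd1 in mean level per kilobase, at 5.07 ± 0.438 CPM per kb (SD, n = 4), with overlap of its range with each of theirs. Among the libraries labelled Pax6 cKO Sfrp2 stood below those genes, at 3.64 ± 0.507 CPM per kb (SD, n = 4), with overlap with Nkd1 but not with Axin2, Apcdd1 or Dkk3. Wif1 stood above Lef1 in both, at 1.33 ± 0.395 CPM per kb in the BAF155 cKO and 1.54 ± 0.185 CPM per kb in the libraries labelled Pax6 cKO (SD, n = 4 each), and only in the second of these groups did the ranges of the 2 genes not overlap.

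**Figure D1:**
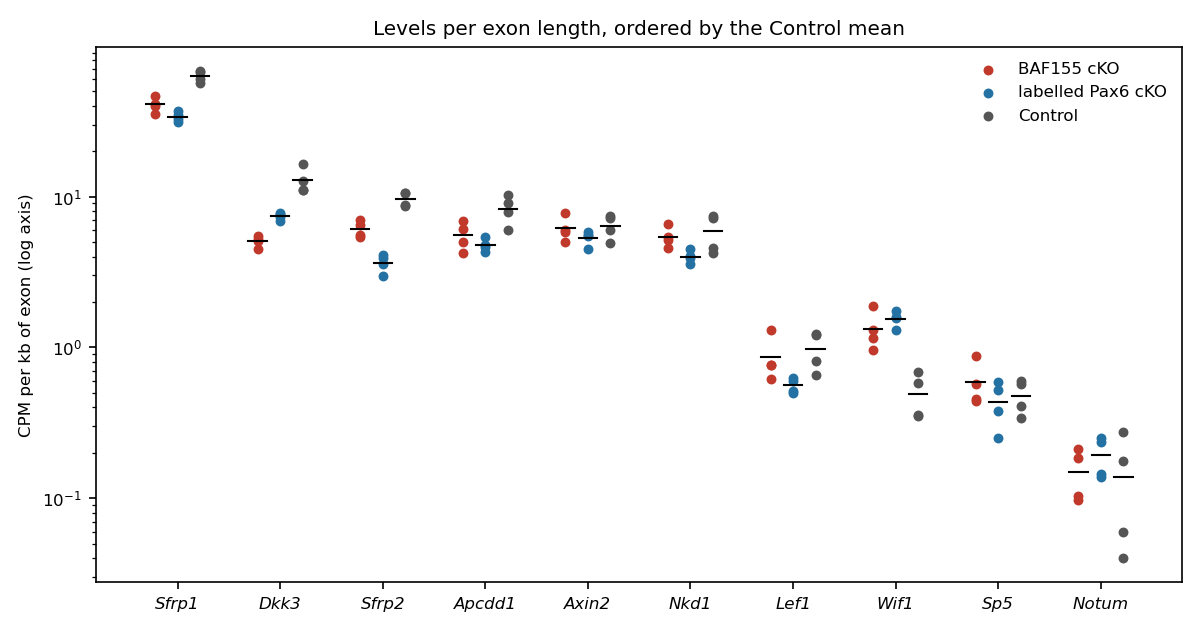
Levels of the 10 genes in CPM per kilobase of merged exon length on a log axis, with 1 point per library (n = 4 per group) and a line at each group's mean. Genes run from left to right by their Control mean, with Sfrp1 first (62.6 CPM per kb) and Notum last (0.138 CPM per kb), and Wif1 is the gene whose Control points lie below those of both other groups.

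All 4 secreted antagonists differed from Control in the BAF155 cKO and in the libraries labelled Pax6 cKO, and in the same direction in each. Sfrp1, Sfrp2 and Dkk3 fell and Wif1 rose, by edgeR's quasi-likelihood test with Benjamini-Hochberg adjustment over all 16511 genes tested and an adjusted p under 0.05. Of all genes tested, 13.6% were called in the BAF155 cKO (6.04% higher and 7.56% lower) and 35.5% in the libraries labelled Pax6 cKO (16.6% higher and 18.9% lower), against the same Control libraries. Over the 10 genes, 1 rose and 4 fell in the BAF155 cKO, and 1 rose and 6 fell in the libraries labelled Pax6 cKO. In each of these groups the range of the 4 libraries lay apart from that of the 4 controls for all 4 antagonists, which held for 14.4% of all genes in the BAF155 cKO and for 35.6% in the libraries labelled Pax6 cKO. The calls of these 4 genes held in every alternative fit, of which there were 21 for the BAF155 cKO and 19 for the libraries labelled Pax6 cKO.

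Sfrp1 (ENSMUSG00000031548, mm10 chromosome 8, 23411502 to 23449632, plus strand) encodes a secreted Frizzled-related protein, which carries a Frizzled-like domain that binds Wnts outside the cell. It measured 154, 204, 175 and 181 CPM in the 4 BAF155 cKO replicates, 137, 161, 143 and 151 CPM in the replicates labelled Pax6 cKO, and 247, 261, 295 and 291 CPM in Control. Each library of both groups lay below each control library. Sfrp1 fell to a fold of 0.652 in the BAF155 cKO (log2 fold change −0.62, SE 0.10, adjusted p = 0.000644, edgeR) and 0.541 in the libraries labelled Pax6 cKO (log2 fold change −0.89, SE 0.10, adjusted p = 1.42e-05, edgeR). Against same-sex controls the log2 fold change was −0.73 in the BAF155 cKO and −0.78 in the libraries labelled Pax6 cKO. The radial glia genes Sox2, Hes1, Hes5, Nes, Vim, Fabp7, Slc1a3 and Notch1 summed to 1815 to 2059 CPM in the BAF155 cKO, 2043 to 2205 CPM in the libraries labelled Pax6 cKO and 2266 to 2446 CPM in Control. Fabp7 made up most of this sum in the libraries labelled Pax6 cKO, where it lay above Control. It had 811 to 1075 CPM in the BAF155 cKO, 1116 to 1293 CPM in the libraries labelled Pax6 cKO and 702 to 1006 CPM in Control. Of these 8 genes, 4 fell in the BAF155 cKO, where 7.56% of all genes fell, and 6 fell and 1 rose in the libraries labelled Pax6 cKO, where 18.9% fell. Set against same-sex controls, 5 fell in the BAF155 cKO and 4 in the libraries labelled Pax6 cKO, with 0 higher in either. Of all genes, 14.5% and 4.9% fell there. The part of the radial glia genes in the lower Sfrp1 was not tested, and in bulk tissue fewer cells of a type and less RNA per cell cannot be told apart.

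Sfrp2 (ENSMUSG00000027996, mm10 chromosome 3, 83766321 to 83774316, plus strand) encodes a close relative of Sfrp1 and marks the antihem. It had 11.6, 15.1, 13.95 and 12.001 CPM in the 4 BAF155 cKO replicates, 8.44, 8.86, 7.65 and 6.37 CPM in the replicates labelled Pax6 cKO, and 18.9, 18.6, 22.7 and 22.6 CPM in Control. The 3 groups did not overlap, and the libraries labelled Pax6 cKO were the lowest. The fold against Control was 0.637 in the BAF155 cKO (log2 fold change −0.65, SE 0.13, adjusted p = 0.00341, edgeR) and 0.379 in the libraries labelled Pax6 cKO (log2 fold change −1.40, SE 0.13, adjusted p = 2.48e-06, edgeR). With same-sex controls it came to −0.80 in the BAF155 cKO and −1.26 in the libraries labelled Pax6 cKO. The antihem genes Dbx1, Tgfa, Fgf7, Fgf15 and Nrg1 summed to 48.3 to 61.7 CPM in the BAF155 cKO, 48.5 to 56.6 CPM in the libraries labelled Pax6 cKO and 65.5 to 88.0 CPM in Control. Of the 4 that were tested, 1 fell in the BAF155 cKO, and 2 fell and 1 rose in the libraries labelled Pax6 cKO. Among all genes, 7.56% fell in the BAF155 cKO, and 18.9% fell and 16.6% rose in the second group. Same-sex controls gave 1 lower of 5 tested in the BAF155 cKO, where 14.5% of all genes fell. They gave 1 lower of 4 tested in the second group, where 4.9% fell. The part of the antihem genes in the lower Sfrp2 was not tested. Exons of Gm26771 on the other strand cover 347 bases of Sfrp2, and the library kit does not mark strand, so reads there cannot be assigned to either gene.

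Dkk3 (ENSMUSG00000030772, mm10 chromosome 7, 112116017 to 112159057, minus strand) encodes a divergent member of the Dickkopf family of secreted proteins, whose best known members block the receptors Lrp5 and Lrp6. It reached 15.0, 18.5, 17.7 and 16.9 CPM in the 4 BAF155 cKO replicates, 23.2, 26.3, 24.5 and 25.6 CPM in the replicates labelled Pax6 cKO, and 55.0, 37.2, 42.8 and 36.9 CPM in Control. The 3 groups did not overlap here either, but the BAF155 cKO was the lowest. The fold was 0.395 in the BAF155 cKO (log2 fold change −1.34, SE 0.12, adjusted p = 3.48e-06, edgeR) and 0.579 in the libraries labelled Pax6 cKO (log2 fold change −0.79, SE 0.12, adjusted p = 0.000246, edgeR). With same-sex controls the log2 values were −1.24 in the BAF155 cKO and −0.89 in the libraries labelled Pax6 cKO.

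Wif1 (ENSMUSG00000020218, mm10 chromosome 10, 121033960 to 121100650, plus strand) encodes Wnt inhibitory factor 1, which binds Wnt proteins directly and keeps them from their receptors. The level was 3.18, 4.57, 2.35 and 2.81 CPM in the 4 BAF155 cKO replicates, 3.78, 4.23, 3.84 and 3.14 CPM in the replicates labelled Pax6 cKO, and 0.859, 0.852, 1.40 and 1.67 CPM in Control. Each library of both groups lay above each control library, and both male controls lay below both female ones. The fold was 2.77 in the BAF155 cKO (log2 fold change 1.47, SE 0.25, adjusted p = 0.00136, edgeR) and 3.17 in the libraries labelled Pax6 cKO (log2 fold change 1.66, SE 0.25, adjusted p = 0.00023, edgeR). Against same-sex controls the log2 fold change was 1.08 (adjusted p = 0.0131, edgeR) in the BAF155 cKO and 2.12 (adjusted p = 0.000283, edgeR) in the libraries labelled Pax6 cKO. Genes of the ventral telencephalon (Dlx1, Dlx2, Dlx5, Dlx6, Gad1, Gad2, Gsx2, Nkx2-1 and Lhx6) summed to 1045 to 1219 CPM in the BAF155 cKO, 1267 to 1384 CPM in the libraries labelled Pax6 cKO and 536 to 778 CPM in Control. Of these 9, 6 rose and 0 fell in the BAF155 cKO, and 7 rose and 0 fell in the libraries labelled Pax6 cKO. Of all genes tested, 6.04% rose in the BAF155 cKO and 16.6% in the libraries labelled Pax6 cKO. Dlx1, Gad1 and Gad2 made up most of the sum, while Lhx6 (log2 fold change −0.02 in the BAF155 cKO and 0.05 in the libraries labelled Pax6 cKO) and Nkx2-1 (−0.65 in the BAF155 cKO and 0.07 in the libraries labelled Pax6 cKO) were not called in either. With same-sex controls 6 rose and 0 fell in each, where 10.7% of all genes rose in the BAF155 cKO and 3.07% in the other. The part of these ventral genes in the higher Wif1 was not tested.

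**Figure D2:**
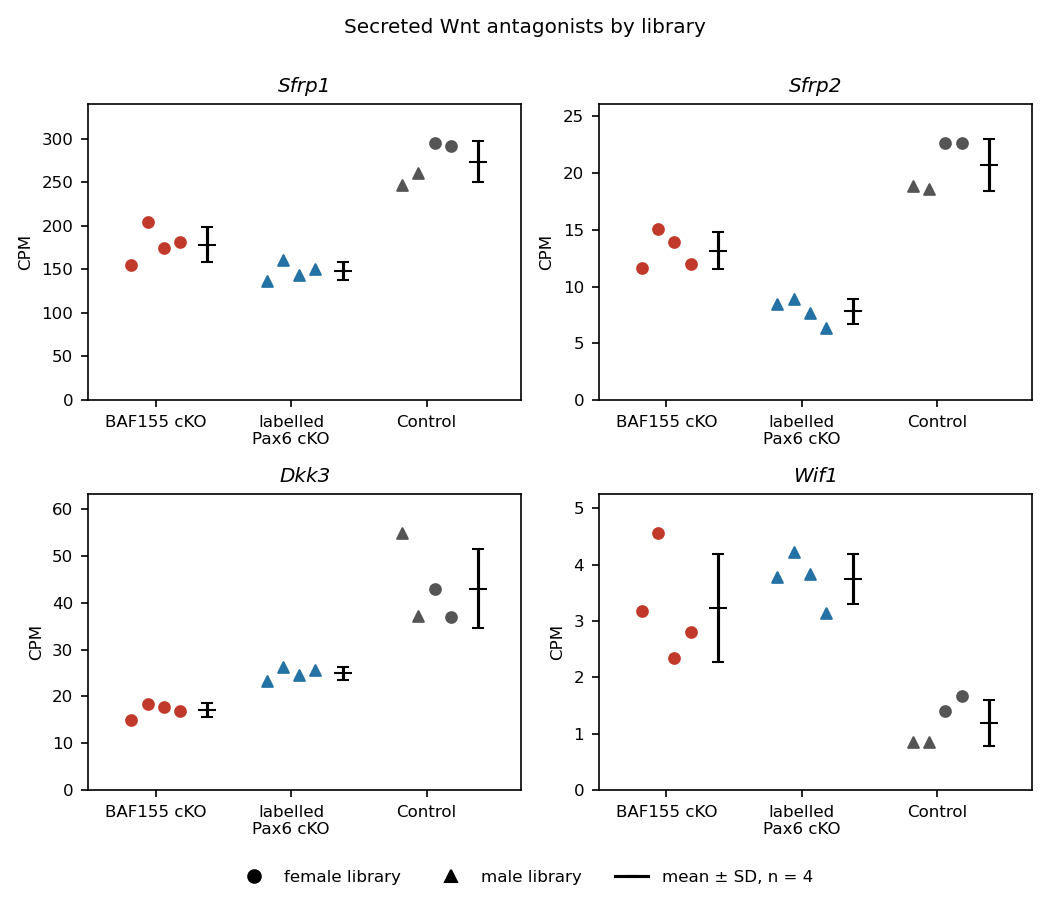
CPM of the 4 secreted antagonists in each library, female libraries as circles and male as triangles, with mean ± SD (n = 4) beside each group. Sfrp1, Sfrp2 and Dkk3 lie lower in the BAF155 cKO and the libraries labelled Pax6 cKO than in Control and Wif1 lies higher, with no overlap with Control.

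Set against each other, the BAF155 cKO and the libraries labelled Pax6 cKO differed in Sfrp2 and Dkk3 and in opposite directions. Sfrp2 was higher in the BAF155 cKO than in the libraries labelled Pax6 cKO (13.2 ± 1.62 CPM against 7.83 ± 1.09 CPM, SD, n = 4 each, log2 fold change 0.75, SE 0.13, adjusted p = 0.00424, edgeR). Dkk3 was lower in the BAF155 cKO (17.0 ± 1.47 CPM against 24.9 ± 1.33 CPM, SD, n = 4 each, log2 fold change −0.55, SE 0.12, adjusted p = 0.0185, edgeR). Of all genes tested, 4.31% were called in this contrast, 2.3% higher and 2.01% lower, and these were the only 2 of the 10 genes that were. With the BAF155 cKO libraries of lane 1 alone, which shared a lane with the libraries labelled Pax6 cKO, the log2 fold change of Sfrp2 stood at 0.78 (adjusted p = 0.0176, edgeR) and that of Dkk3 at −0.56, not called (adjusted p = 0.073, edgeR). With those of lane 3 alone, Sfrp2 had 0.74 (adjusted p = 0.0279, edgeR) and Dkk3 had −0.52 (adjusted p = 0.129, edgeR), again without a call for Dkk3. The call of Dkk3 was also lost without BAF155 cKO replicate 1 or without replicate 2, 3 or 4 labelled Pax6 cKO (adjusted p = 0.0512 to 0.0613, edgeR). Sfrp1 showed a difference of 0.27 on the log2 scale (SE 0.10, adjusted p = 0.119, edgeR) and Wif1 one of −0.19 (SE 0.22, adjusted p = 0.666, edgeR) in this contrast. The 6 target genes lay between −0.45 for Notum and 0.64 for Lef1, without a call. Nkd1, whose ranges lay apart as did those of 15.3% of all genes, had 0.45 (adjusted p = 0.147, edgeR) and passed in the fit of only the 8 libraries compared (log2 fold change 0.46, adjusted p = 0.037, edgeR). The BAF155 cKO libraries were female and the others male, so sex and group cannot be told apart in it.

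The 250 bases before the RefSeq start of Sfrp2 and Wif1 are shown because these genes moved in opposite directions in both comparisons with Control. The sequences are RefSeq's for build GRCm38.p6, which shares its coordinates with mm10, 5′ to 3′ on the plus strand, chr3:83766071-83766320 for Sfrp2 and chr10:121033754-121034003 for Wif1.
Sfrp2: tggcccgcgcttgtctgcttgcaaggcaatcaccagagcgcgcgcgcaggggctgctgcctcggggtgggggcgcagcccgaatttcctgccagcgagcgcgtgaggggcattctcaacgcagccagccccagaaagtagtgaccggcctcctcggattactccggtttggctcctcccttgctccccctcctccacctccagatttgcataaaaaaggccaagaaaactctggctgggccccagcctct
Wif1: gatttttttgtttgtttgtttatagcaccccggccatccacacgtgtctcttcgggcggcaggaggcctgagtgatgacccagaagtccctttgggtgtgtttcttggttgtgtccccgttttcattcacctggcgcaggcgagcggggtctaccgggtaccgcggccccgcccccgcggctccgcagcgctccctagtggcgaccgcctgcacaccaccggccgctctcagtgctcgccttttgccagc
Both are rich in G and C, at 63.6% and 62.8% of bases. The TCF/LEF core was searched on both strands as CTTTG followed by AA, AT, TT or TA, and no 2 of these can start at the same base of a strand. Capitals would mark a match. Neither sequence holds one, against 14.8% of 32851 RefSeq gene starts with at least 1 match in the same 250 bases. A start entry was matched for 6 of the 10 genes.

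The 6 target genes gave a less uniform picture than the antagonists, and the 4 controls did not sit together. Against all 4 controls, 1 of the 6 was lower in the BAF155 cKO (Apcdd1) and 3 were lower in the libraries labelled Pax6 cKO (Apcdd1, Lef1 and Nkd1), with 0 higher in either. Of all genes tested, 7.56% were called lower in the BAF155 cKO and 18.9% in the libraries labelled Pax6 cKO. Against same-sex controls, 2 of the 6 were lower in the BAF155 cKO (Apcdd1 and Nkd1), where 25.1% of all genes were called, 14.5% lower and 10.7% higher, and 0 of the 6 were called in the libraries labelled Pax6 cKO, where 7.98% of all genes were called, 4.9% lower and 3.07% higher. The median log2 fold change of the 6 was −0.09 in the BAF155 cKO and −0.41 in the libraries labelled Pax6 cKO against all controls, beside medians over all genes of 0.01 and 0.02. Against same-sex controls it was −0.36 in the BAF155 cKO and −0.21 in the libraries labelled Pax6 cKO, beside a median over all genes of 0.02 in each.

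Axin2 (ENSMUSG00000000142, mm10 chromosome 11, 108920349 to 108950783, plus strand) encodes a scaffold of the complex that destroys β-catenin and is the most widely used readout of the pathway. Its level was 33.0, 42.9, 32.0 and 27.6 CPM in the 4 BAF155 cKO replicates, 32.2, 30.0, 30.6 and 24.9 CPM in the replicates labelled Pax6 cKO, and 33.0, 27.1, 39.8 and 40.9 CPM in Control. All 3 groups overlapped. On the log2 scale the change came to −0.05 (SE 0.14, adjusted p = 0.824, edgeR) in the BAF155 cKO and to −0.26 (SE 0.14, adjusted p = 0.17, edgeR) in the libraries labelled Pax6 cKO. The direction in the BAF155 cKO flipped with the libraries used: it was 0.12 with those of lane 1 alone and −0.26 against female controls. In the libraries labelled Pax6 cKO it came to −0.035 against male controls. Exons of Gm11670 on the other strand cover 209 bases of Axin2.

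Lef1 (ENSMUSG00000027985, mm10 chromosome 3, 131110471 to 131224356, plus strand) encodes one of the DNA-binding partners of β-catenin and is itself a target. Its level was 6.76, 11.4, 6.72 and 5.43 CPM in the 4 BAF155 cKO replicates, 4.38, 5.53, 4.51 and 5.28 CPM in the replicates labelled Pax6 cKO, and 7.11, 5.78, 10.6 and 10.7 CPM in Control. The libraries labelled Pax6 cKO all lay below Control, while the BAF155 cKO overlapped it, with replicate 2 above the other BAF155 cKO libraries and all controls. On the log2 scale the change came to −0.80 (SE 0.23, adjusted p = 0.0151, edgeR) in the libraries labelled Pax6 cKO and −0.15 (SE 0.23, adjusted p = 0.651, edgeR) in the BAF155 cKO. The first of these was not called without Control replicate 3 or 4 (adjusted p = 0.0557 and 0.0556, edgeR) nor against the 2 male controls, where the log2 fold change was −0.40 (adjusted p = 0.324, edgeR). The second was 0.11 with the BAF155 cKO libraries of lane 1 alone and −0.49 against female controls (adjusted p = 0.124, edgeR). Exons of Gm43352 on the other strand cover 1208 bases of Lef1.

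Nkd1 (ENSMUSG00000031661, mm10 chromosome 8, 88521354 to 88594884, plus strand) encodes Naked cuticle 1, a feedback inhibitor that binds Dishevelled. Expression was 23.5, 29.9, 24.5 and 20.8 CPM in the 4 BAF155 cKO replicates, 17.8, 20.4, 18.3 and 16.2 CPM in the replicates labelled Pax6 cKO, and 20.9, 19.3, 32.9 and 34.1 CPM in Control. The libraries labelled Pax6 cKO overlapped the male controls and lay below the female ones, and the BAF155 cKO libraries lay below the female controls and overlapped the male ones. On the log2 scale the change came to −0.56 (SE 0.17, adjusted p = 0.0201, edgeR) in the libraries labelled Pax6 cKO and −0.11 (SE 0.17, adjusted p = 0.668, edgeR) in the BAF155 cKO. Against same-sex controls it was −0.15 (adjusted p = 0.548, edgeR) in the libraries labelled Pax6 cKO and −0.45 (adjusted p = 0.0261, edgeR) in the BAF155 cKO. The call in the libraries labelled Pax6 cKO was lost without Control replicate 3 or 4 or replicate 4 of that group (adjusted p = 0.0596 to 0.08, edgeR). In the BAF155 cKO the value was 0.0027 without Control replicate 3, 0.026 without Control replicate 4 and 0.016 with the libraries of lane 1 alone.

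Apcdd1 (ENSMUSG00000071847, mm10 chromosome 18, 62922231 to 62961179, plus strand) encodes a membrane protein that inhibits Wnt signalling at the cell surface. The values were 54.3, 79.1, 88.2 and 64.6 CPM in the 4 BAF155 cKO replicates, 55.2, 69.6, 60.0 and 61.7 CPM in the replicates labelled Pax6 cKO, and 101, 77.1, 133 and 116 CPM in Control. The libraries labelled Pax6 cKO all lay below Control, and BAF155 cKO replicates 2 and 3 lay above Control replicate 2. It fell to a fold of 0.669 in the BAF155 cKO (log2 fold change −0.58, SE 0.16, adjusted p = 0.0282, edgeR) and to one of 0.577 in the libraries labelled Pax6 cKO (log2 fold change −0.79, SE 0.16, adjusted p = 0.00227, edgeR). Against same-sex controls it was −0.82 (adjusted p = 0.00338, edgeR) in the BAF155 cKO and −0.54 (adjusted p = 0.0642, edgeR) in the libraries labelled Pax6 cKO, where it was not called. The call in the BAF155 cKO was lost without BAF155 cKO replicate 1 or 4 or Control replicate 3 or 4 (adjusted p = 0.0726 to 0.0987, edgeR). It was also lost without the filter on low counts (adjusted p = 0.0591, edgeR), in the fit of only the 8 libraries compared (adjusted p = 0.0742, edgeR) and with lane 1 (adjusted p = 0.0781, edgeR) or lane 3 (adjusted p = 0.0904, edgeR) alone.

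Sp5 and Notum were the least abundant of the 10 genes. Sp5 (ENSMUSG00000075304, mm10 chromosome 2, 70474923 to 70477729, plus strand), which encodes a zinc finger transcription factor and a direct target of β-catenin, had 0.932, 1.86, 1.20 and 0.958 CPM in the 4 BAF155 cKO replicates, 1.24, 1.10, 0.792 and 0.524 CPM in the replicates labelled Pax6 cKO, and 0.859, 0.710, 1.26 and 1.19 CPM in Control. These values rest on 12 to 52 reads per library, and all 3 groups overlapped. On the log2 scale the change came to 0.33 (SE 0.31, adjusted p = 0.459, edgeR) in the BAF155 cKO and to −0.12 (SE 0.31, adjusted p = 0.781, edgeR) in the libraries labelled Pax6 cKO. Set against same-sex controls Sp5 stood at 0.023 in the BAF155 cKO and, with its sign turned, at 0.21 in the libraries labelled Pax6 cKO. Notum (ENSMUSG00000042988, mm10 chromosome 11, 120653788 to 120661175, minus strand) encodes a secreted enzyme that removes the lipid from Wnt proteins. It held 6, 7, 7 and 8 reads in BAF155 cKO replicates 1 to 4, 17, 14, 11 and 8 reads in the replicates labelled Pax6 cKO, and 20, 9, 2 and 3 reads in Control. Control alone spanned 0.0967 to 0.661 CPM, which covers both other groups. On the log2 scale the change came to −0.07 (SE 0.50, adjusted p = 0.935, edgeR) in the BAF155 cKO and to 0.38 (SE 0.46, adjusted p = 0.541, edgeR) in the libraries labelled Pax6 cKO. Against same-sex controls both flipped, to 1.44 (adjusted p = 0.0934, edgeR) in the BAF155 cKO and −0.26 (adjusted p = 0.739, edgeR) in the libraries labelled Pax6 cKO. Exons of Notumos and Myadml2os on the other strand cover 918 of the 2408 exon bases of Notum.

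Sp5 is the gene among the 6 with a matched start entry whose first 250 bases upstream held more than 1 match to the TCF/LEF core, and its sequence is shown for that reason, chr2:70474673-70474922 on the plus strand of GRCm38.p6 from RefSeq, with the matches in capitals.
Sp5: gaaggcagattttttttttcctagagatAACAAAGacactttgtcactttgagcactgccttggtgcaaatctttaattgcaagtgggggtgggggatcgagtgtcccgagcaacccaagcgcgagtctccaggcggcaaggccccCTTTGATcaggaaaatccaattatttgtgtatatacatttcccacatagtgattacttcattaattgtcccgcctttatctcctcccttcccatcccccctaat
The first match, 222 bases before the start, is CTTTGTT on the minus strand, and the second, 104 bases before the start, is CTTTGAT on the plus strand. Of the 9 start entries of the 6 genes, 2 held a match, the other being 1 of the 4 entries of Lef1. The Lef1 entries that begin at 131110047 and 131110073 overlap, so the 9 entries are not all separate sequence. Over all RefSeq starts, 14.8% held at least 1 match to any of the 4 forms searched. The shares were 5.03% for CTTTGTT and 3.21% for CTTTGAT.

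**Figure D3:**
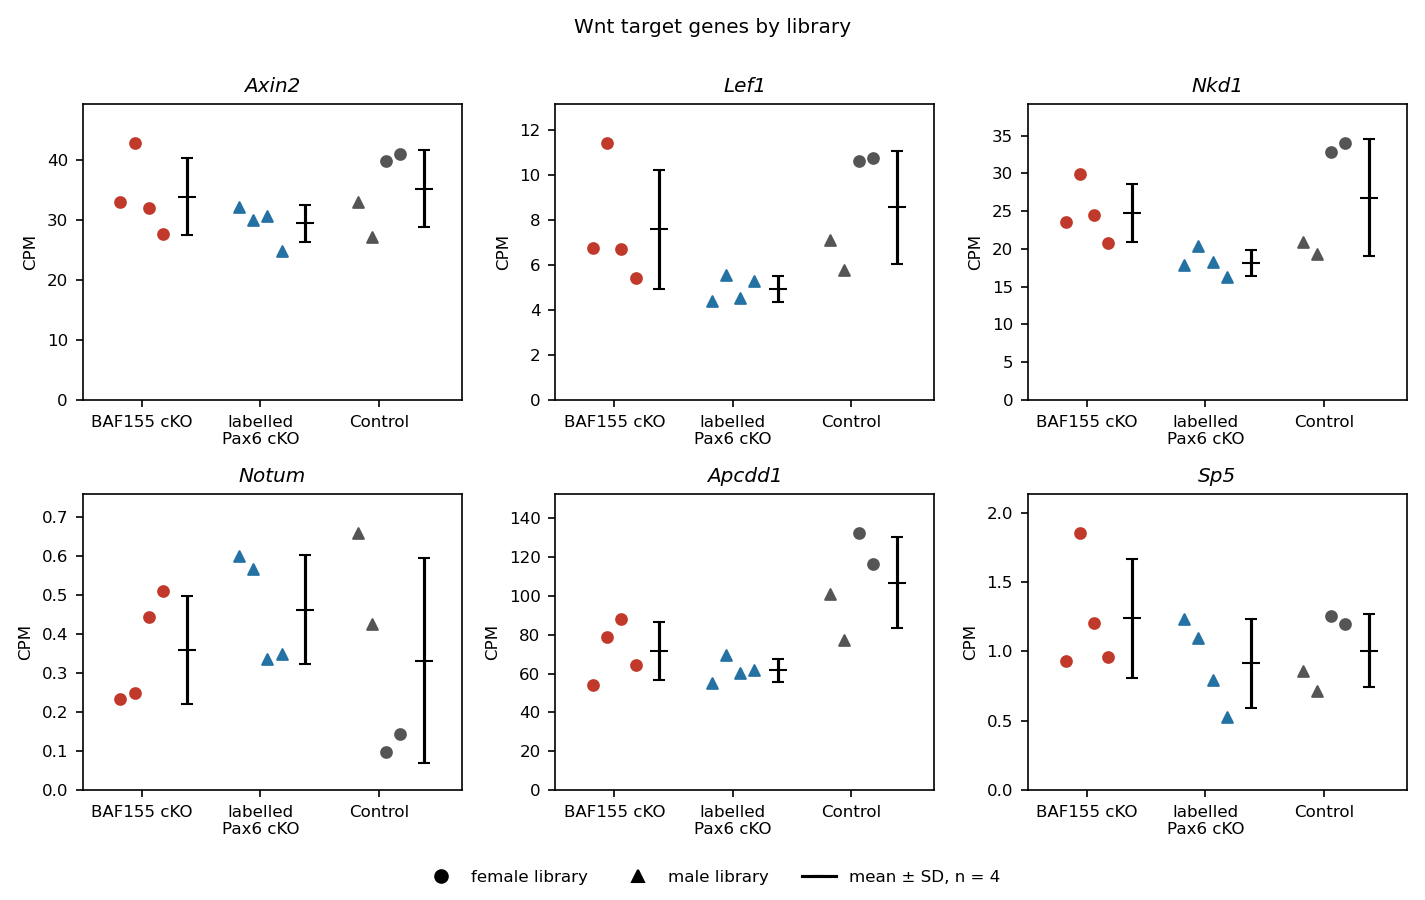
CPM of the 6 target genes in each library, female libraries as circles and male as triangles, with mean ± SD (n = 4) beside each group. In Control the 2 circles lie above the 2 triangles for Axin2, Lef1, Nkd1, Apcdd1 and Sp5 and below them for Notum.

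The split among the controls was common to most of the 10 genes. Female controls lay above male controls for 8 of the 10, Sfrp1, Sfrp2, Wif1, Axin2, Lef1, Nkd1, Apcdd1 and Sp5, without overlap of 2 and 2 libraries, which held for 30.3% of all genes tested. They lay below for Notum, which held for 28.8% of all genes, and overlapped for Dkk3. Nkd1 averaged 33.5 CPM in the female and 20.1 CPM in the male controls, a ratio of 1.66, and Lef1 averaged 10.7 CPM in the female and 6.44 CPM in the male controls, also a ratio of 1.66. The ratio was 1.80 for Wif1, 1.56 for Sp5, 1.40 for Apcdd1, 1.34 for Axin2, 1.21 for Sfrp2, 1.16 for Sfrp1, 0.865 for Dkk3 and 0.221 for Notum. The same pairs of controls differed in other measures. The share of mitochondrial reads was 1.21% and 1.38% in female controls against 2.27% and 2.18% in male controls, and the sum of the 5 cortical genes was 1935 to 2162 CPM in female controls against 1555 to 1684 CPM in male controls. With 2 libraries a side there is no test of sex here, and the part of these measures in the split was not tested.

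**Figure D4:**
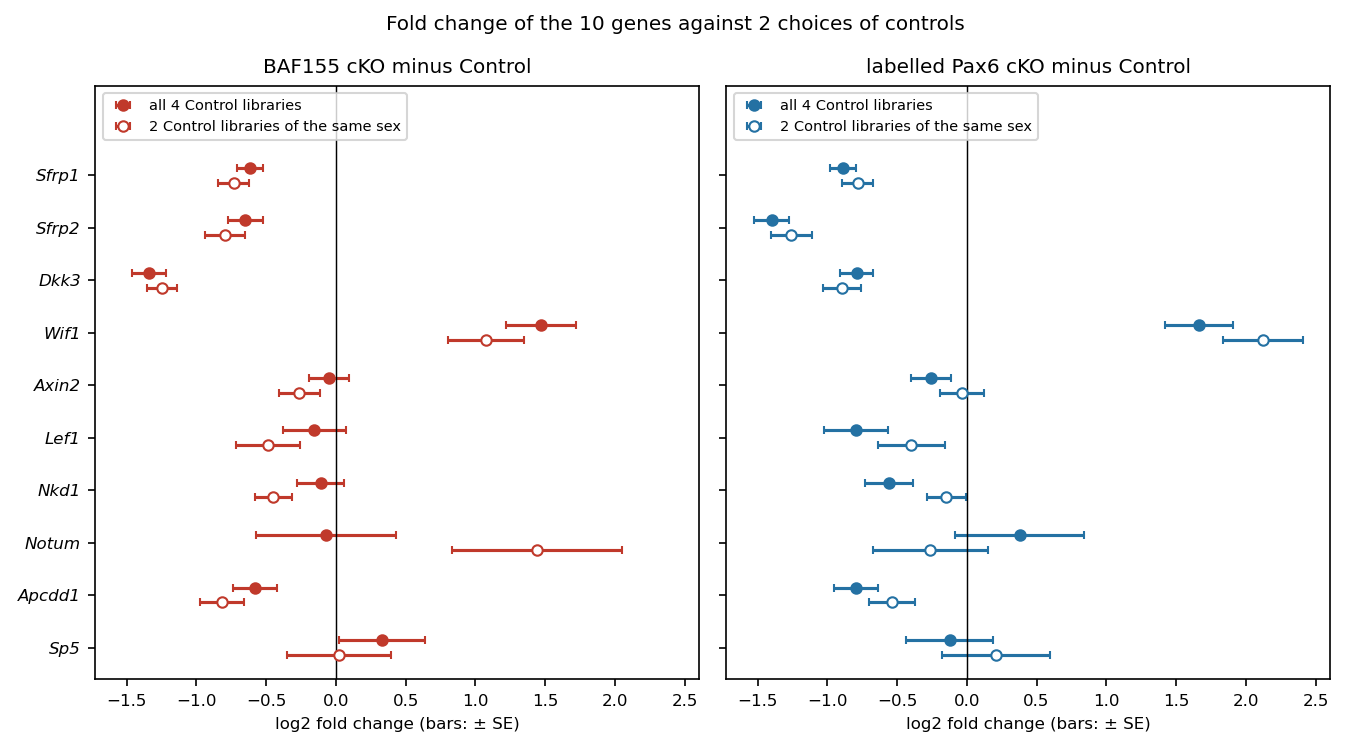
Log2 fold change of the 10 genes in the BAF155 cKO (left) and the libraries labelled Pax6 cKO (right), against all 4 controls (filled) and against same-sex controls (open), with bars of ± SE. The antagonists keep their side of 0 under both choices, while Nkd1 lies at −0.45 in the BAF155 cKO and at −0.15 in the libraries labelled Pax6 cKO against same-sex controls.

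Within the BAF155 cKO, replicate 2 was the highest of the 4 libraries for Sfrp1, Sfrp2, Dkk3, Wif1, Axin2, Lef1, Nkd1 and Sp5, though not for Apcdd1 or Notum. It also had the lowest share of mitochondrial reads of its group, 1.57% against 2.09% to 3.27%, and the highest sum of the hem genes Wnt3a, Wnt2b, Wnt8b, Rspo1, Rspo2, Lmx1a, Bmp6 and Gdf7, 47.9 CPM against 24.3 to 31.5 CPM. Hem genes summed to 24.2 to 26.2 CPM in the libraries labelled Pax6 cKO and to 18.3 to 38.5 CPM in Control. Of the 7 hem genes tested, 0 were called in the BAF155 cKO, and 2 fell and 0 rose in the libraries labelled Pax6 cKO, where with same-sex controls 0 were called. Of all genes tested, 13.6% were called in the BAF155 cKO, and 18.9% fell and 16.6% rose in the libraries labelled Pax6 cKO. Blood vessels of the embryonic brain also express several Wnt targets. A list of 12 endothelial genes, all tested, summed to 163 to 234 CPM in the BAF155 cKO, 207 to 235 CPM in the libraries labelled Pax6 cKO and 192 to 235 CPM in Control. Of the 12, 0 were called in the BAF155 cKO, and 4 rose and 1 fell in the libraries labelled Pax6 cKO. The shares over all genes were those given for the hem genes. Set against same-sex controls 1 rose in the BAF155 cKO and 1 fell in the libraries labelled Pax6 cKO. Of all genes, 10.7% rose in that BAF155 cKO comparison and 4.9% fell in the other. The thalamus list, which holds Lef1 itself, summed to 226 to 289.8 CPM in the BAF155 cKO, 199.98 to 220.2 CPM in the libraries labelled Pax6 cKO and 202 to 246 CPM in Control. The 8 meningeal genes summed to 14.04 to 19.2 CPM over the 12 libraries. Among the 8 choroid plexus genes the sum was 8.94 to 22.1 CPM in the BAF155 cKO, 27.0 to 336 CPM in the libraries labelled Pax6 cKO and 18.0 to 36.7 CPM in Control. Ttr carried most of the spread, and the other 7 genes summed to 6.79 to 13.2 CPM in the BAF155 cKO, 14.1 to 18.3 CPM in the libraries labelled Pax6 cKO and 7.53 to 15.1 CPM in Control. The 6 liver genes other than Ttr summed to 1.59 to 193 CPM in the BAF155 cKO, 0.480 to 1.24 CPM in the libraries labelled Pax6 cKO and 0.239 to 0.758 CPM in Control, with Alb at 25.9 CPM in BAF155 cKO replicate 3 and 157 CPM in replicate 4. The 6 hypothalamic genes, of which Rax was at 0 in all libraries, summed to 2.52 to 9.67 CPM in the BAF155 cKO, 0.447 to 1.73 CPM in the libraries labelled Pax6 cKO and 0.145 to 0.812 CPM in Control. The part of these cells in the levels of the 10 genes was not tested.

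Across the 12 libraries the antagonists and targets fell into loosely related patterns, given as Pearson's r of log2(CPM + 0.5) over libraries that share 3 groups, a description without a test. Sfrp1 and Sfrp2 ran together (r = 0.936), and Apcdd1 ran with Sfrp1 (r = 0.891). Lef1 and Nkd1 ran together (r = 0.936), as did Axin2 with Nkd1 (r = 0.884) and with Lef1 (r = 0.845). Dkk3 was little related to Nkd1 (r = 0.133) or Axin2 (r = 0.146), and Wif1 ran against Sfrp1 (r = −0.790). Among protein-coding genes tested, the most alike to Wif1 was Pax6 itself (r = 0.952), followed by Eya2 (r = 0.940). Sstr2 and Tmem50b were most like Sfrp1 (r = 0.976 each), Pcdh18 (r = 0.981) and Lamc1 (r = 0.9801) most like Sfrp2, and Tmem74 (r = 0.983) and Tac2 (r = 0.977) most like Dkk3. For the targets these were Mmp15 (r = 0.932) and Ddx27 (r = 0.929) for Axin2, Zfp106 (r = 0.964) and Mfhas1 (r = 0.963) for Lef1, Pnkd (r = 0.960) and Src (r = 0.955) for Nkd1, and Cdh2 (r = 0.971) and Tmem229b (r = 0.970) for Apcdd1. The likeness was lower for the sparse genes, 0.902 for Notum with Pycard, 0.899 with Arhgdig, 0.861 for Sp5 with Plvap and 0.858 with Trmt12.

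The rest of the pathway was read from lists of named genes. Of 16 other antagonists, 12 were tested, of which 2 rose and 3 fell in the BAF155 cKO, and 1 rose and 3 fell in the libraries labelled Pax6 cKO. Of all genes tested, 6.04% rose and 7.56% fell in the BAF155 cKO, and 16.6% rose and 18.9% fell in the libraries labelled Pax6 cKO. Shisa2, which holds Frizzled back inside the cell, fell in both, to 20.7 ± 1.56 CPM in the BAF155 cKO (log2 fold change −1.22) and to 14.1 ± 0.455 CPM in the libraries labelled Pax6 cKO (log2 fold change −1.78), against 48.4 ± 8.06 CPM in Control (SD, n = 4 each). Dkk1, a Dickkopf antagonist of Lrp5/6, rose in the BAF155 cKO (log2 fold change 1.27, adjusted p = 0.0187, edgeR) at a low level of 0.661 ± 0.145 CPM against 0.277 ± 0.0961 CPM (SD, n = 4 each). Sfrp4, a further Frizzled-related protein, rose in the libraries labelled Pax6 cKO (log2 fold change 0.97, adjusted p = 0.00286, edgeR) and in the BAF155 cKO (log2 fold change 0.67, adjusted p = 0.0491, edgeR), where the call was lost with same-sex controls (adjusted p = 0.0947, edgeR). Dkk1 in the libraries labelled Pax6 cKO had 0.81 (adjusted p = 0.0615, edgeR). The calls of Shisa2, of Dkk1 in the BAF155 cKO and of Sfrp4 in the libraries labelled Pax6 cKO held against same-sex controls. Against same-sex controls, with 13 of the list tested, 1 rose and 3 fell in the BAF155 cKO, and 1 rose and 2 fell in the libraries labelled Pax6 cKO. Of all genes, 10.7% rose and 14.5% fell in that BAF155 cKO comparison, and 3.07% rose and 4.9% fell in the other.

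Of 18 other genes listed as targets or feedback genes, 16 were tested, of which 0 rose and 4 fell in the BAF155 cKO, and 5 rose and 4 fell in the libraries labelled Pax6 cKO, beside 6.04% higher and 7.56% lower of all genes in the BAF155 cKO and 16.6% higher and 18.9% lower in the libraries labelled Pax6 cKO. The median log2 fold change was 0.02 in the BAF155 cKO and −0.01 in the libraries labelled Pax6 cKO. Prdm16, a zinc finger protein of radial glia, fell in both (log2 fold change −1.14 in the BAF155 cKO and −1.53 in the libraries labelled Pax6 cKO). Sp8, a relative of Sp5 that patterns the telencephalon, rose in the libraries labelled Pax6 cKO (log2 fold change 1.16, adjusted p = 2.29e-05, edgeR) and had 0.35 in the BAF155 cKO (adjusted p = 0.0872, edgeR). The calls of Prdm16 and Sp8 held with same-sex controls. With same-sex controls, 1 of the 16 rose and 5 fell in the BAF155 cKO, and 3 rose and 1 fell in the libraries labelled Pax6 cKO. Of all genes, 10.7% rose and 14.5% fell in that BAF155 cKO comparison, and 3.07% rose and 4.9% fell in the other.

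Of 25 ligands and secretion factors, 16 were tested, of which 3 rose and 2 fell in the BAF155 cKO, and 3 rose and 3 fell in the libraries labelled Pax6 cKO. The shares over all genes were 6.04% higher and 7.56% lower in the BAF155 cKO, and 16.6% and 18.9% in the libraries labelled Pax6 cKO. Wls, the carrier that brings Wnt proteins to the cell surface, rose in both, to 109 ± 9.74 CPM in the BAF155 cKO (log2 fold change 1.78) and to 156 ± 13.9 CPM in the libraries labelled Pax6 cKO (log2 fold change 2.29), against 31.9 ± 5.03 CPM in Control (SD, n = 4 each). Rspo3, which amplifies Wnt signals, fell in the BAF155 cKO (log2 fold change −0.71, adjusted p = 0.0151, edgeR) and in the libraries labelled Pax6 cKO (−0.87, adjusted p = 0.0020, edgeR), where the call was lost with same-sex controls (adjusted p = 0.0567, edgeR). The ligand Wnt7b fell in the BAF155 cKO (−0.55, adjusted p = 0.0483, edgeR) and in the libraries labelled Pax6 cKO (log2 fold change −1.22, adjusted p = 0.000218, edgeR). The calls of Wls and Wnt7b, and of Rspo3 in the BAF155 cKO, held with same-sex controls. With same-sex controls, 3 rose and 2 fell in the BAF155 cKO, and 3 rose and 1 fell in the libraries labelled Pax6 cKO. Of all genes, 10.7% rose and 14.5% fell in that BAF155 cKO comparison, and 3.07% rose and 4.9% fell in the other.

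All 17 receptors and co-receptors were tested. Of these, 3 fell and 0 rose in the BAF155 cKO (median log2 fold change −0.15), and 12 fell and 0 rose in the libraries labelled Pax6 cKO (median −0.43), beside 7.56% of all genes lower in the BAF155 cKO and 18.9% in the libraries labelled Pax6 cKO. Both Lrp5 and Fzd8 fell in both groups, also with same-sex controls. The co-receptor Lrp5 had the smallest adjusted p in the BAF155 cKO (log2 fold change −0.46, adjusted p = 0.0117, edgeR) and the Frizzled receptor Fzd8 in the libraries labelled Pax6 cKO (log2 fold change −0.87, adjusted p = 8.48e-05, edgeR). With same-sex controls 5 were lower in the BAF155 cKO, where 14.5% of all genes were, 4 in the libraries labelled Pax6 cKO, where 4.9% were, and 0 were higher in either. Among 25 intracellular components, 1 rose and 5 fell in the BAF155 cKO, and 1 rose and 15 fell in the libraries labelled Pax6 cKO. Over all genes, 6.04% rose and 7.56% fell in the BAF155 cKO, and 16.6% rose and 18.9% fell in the libraries labelled Pax6 cKO. The median log2 fold change of the 25 was −0.21 in the BAF155 cKO and −0.30 in the libraries labelled Pax6 cKO. Tle4, a co-repressor that binds TCF/LEF proteins, fell in the BAF155 cKO (log2 fold change −0.58) and in the libraries labelled Pax6 cKO (−0.48, adjusted p = 0.00127, edgeR), and its relative Tle1 rose in the BAF155 cKO (log2 fold change 0.35, adjusted p = 0.0214, edgeR). The TCF/LEF factor Tcf7l2 fell in the BAF155 cKO (−0.86, adjusted p = 0.00708, edgeR) and in the libraries labelled Pax6 cKO (log2 fold change −1.17), and Tle2, another co-repressor, rose in the libraries labelled Pax6 cKO (log2 fold change 0.83, adjusted p = 0.0208, edgeR). With same-sex controls, 14 of the intracellular components fell in the BAF155 cKO and 5 in the libraries labelled Pax6 cKO, with 0 higher in either. Of all genes, 10.7% rose and 14.5% fell in that BAF155 cKO comparison, and 3.07% rose and 4.9% fell in the other. Against same-sex controls the calls of Tle1 (adjusted p = 0.136, edgeR) and Tle2 (adjusted p = 0.239, edgeR) were lost. Those of Tle4 and Tcf7l2 held in both groups.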

How the data were processed

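Per the labels' protocols, the RNeasy kit was used for RNA and TruSeq RNA v2 for the libraries. The authors deposited raw read counts per Ensembl gene, 1 table per library. The submitters' processing notes name mm10. Which aligner, counter and annotation were used is not given in the sources used here. Of 48709 identifiers, 48349 matched GENCODE M21, used for symbols, coordinates and merged exon lengths, and the other 360 took up to 0.0397% of any library.

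The tests used edgeR 4.0.16 in R 4.3.3: filterByExpr (16511 genes), TMM, and 1 robust quasi-likelihood fit of all 12 libraries with 1 coefficient per group, tested on simulated data. The SE of a log2 fold change is its size over the square root of F. Alternatives were RLE scaling, DESeq2 1.42.0, no filter or a filter of 1 CPM in 4 libraries, a block for the replicate number, a fit of only the 8 libraries compared, single lanes, controls of the same sex, and leaving out each library. The 10 genes, the lists, and the choice of same-sex controls were made with earlier results of these data known. Beyond the 10 genes, Smarcc1 and Pax6, the genes named are the called gene of smallest adjusted p in each direction per list and comparison with Control, and the 2 most alike to each of the 10. Same-sex counts for the lists were added after the values were seen. Some genes of the cortical and ventral telencephalic marker lists are not reported here, and their sums cover the genes named.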

Additional observations from a re-analysis of the deposited data

How the results depend on the processing

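Counts of the 10 genes called higher were 1 in each contrast, and counts called lower were 4 in the BAF155 cKO, 6 in the libraries labelled Pax6 cKO and 1 between the 2 cKO labels. Against the male controls alone, 3 were lower in the libraries labelled Pax6 cKO. Between the 2 cKO labels, 2 were higher in the fit of only the 8 libraries compared, and 0 were lower with the BAF155 cKO libraries of lane 1 or of lane 3 alone. Leaving out 1 library gave 3 to 4 lower in the BAF155 cKO, 4 to 6 in the libraries labelled Pax6 cKO and 0 to 1 between the 2 cKO labels. The replicate block gave 1 higher and 4 lower in the BAF155 cKO, 1 and 6 in the libraries labelled Pax6 cKO, and 1 and 1 between the 2 cKO labels. Over all genes it called 2245 in the BAF155 cKO, 5689 in the libraries labelled Pax6 cKO and 497 between the 2 cKO labels. It is not stated that same-numbered libraries share more than a number. The correlation of their deviations from the group means ran from −0.300 to 0.459, and where it is below 0 a library cannot correlate best with its own number. Between the libraries numbered 1 it was 0.459, 0.280 and 0.133. Between those numbered 2 it was 0.361 for the 2 cKO labels. For the same number it was −0.280 between the BAF155 cKO and Control, and −0.044 between the libraries labelled Pax6 cKO and Control. Whether some numbers mark a shared origin was not tested.

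Over all genes, 2246 were called in the BAF155 cKO, against 1035 with only the 8 libraries compared, 682 with lane 1 alone, 4294 against female controls and 1001 to 4073 without 1 library. In the libraries labelled Pax6 cKO 5866 were called, against 1375 with male controls and 3825 to 6601 without 1 library. Between the 2 cKO labels 711 were called, against 1339 by DESeq2, 470 with lane 1, 209 with lane 3 and 307 to 900 without 1 library.

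Values that changed sign belonged to genes without a call in the fit of all 12 libraries. In the BAF155 cKO with lane 1 alone they were 0.12 for Axin2, 0.11 for Lef1 and 0.016 for Nkd1. Of these genes, Nkd1 was called in the BAF155 cKO against female controls (log2 fold change −0.45, adjusted p = 0.0261, edgeR). Notum turned to 0.0099 by DESeq2, 0.42 with lane 3 alone and 1.44 against female controls. In the libraries labelled Pax6 cKO against male controls they were −0.26 for Notum and 0.21 for Sp5. Between the 2 cKO labels they were 0.061 for Wif1 with lane 1 and 0.055 for Notum with lane 3. Without 1 library in the BAF155 cKO, Axin2 ran from −0.19 to 0.034, Nkd1 from −0.24 to 0.026 and Notum from −0.35 to 0.58, and Sp5 ran from −0.31 to 0.052 in the libraries labelled Pax6 cKO. The cause was not tested. Notum had no value with a filter of 1 CPM in 4 libraries, nor, against Control, in the fits of only 8 libraries.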
